A study of Homo sapiens with 4 samples.

Results

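The 10 genes described here are the suppressors of cytokine signalling SOCS1, SOCS2, SOCS3, SOCS4, SOCS6 and CISH, the transcription factors STAT3, STAT5A and STAT5B, and the kinase JAK2. They were chosen by name as the inhibitory family together with JAK2, STAT3 and STAT5, and they are 10 of the 18882 genes listed in the RNA-sequencing data. The RNA came from BT-474, an established luminal breast cancer cell line that carries amplified ERBB2, grown in RPMI-1640 with foetal bovine serum. The 2 control libraries are labelled wild-type BT-474. The 2 NRP-1 libraries came from BT-474 cells stably transfected with NRP-1 cDNA in the pPTuner IRES2 vector and selected with Geneticin, so the added expression of the co-receptor neuropilin-1 came from that vector. Transfected colonies were picked before expansion, and how many of them the sequenced cells stem from is not given in the sources used here. Cells that carried the empty vector were not analysed here, so the vector, the selection, the choice of colonies and NRP-1 itself cannot be told apart in the comparison. The question was which of the 10 genes differed between NRP-1 and control cells.

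Cytokines such as prolactin, growth hormone, erythropoietin and interleukin-6 bind receptors that have no kinase of their own and carry a Janus kinase (JAK) instead. The activated kinase phosphorylates the receptor and then the STAT proteins, which pair, enter the nucleus and bind DNA. CISH and SOCS1 to SOCS3 are induced by STATs and close the loop. Through an SH2 domain SOCS proteins and CISH bind a phosphorylated receptor or kinase, and through a SOCS box they recruit a Cullin-5 ubiquitin ligase. In the mammary gland, prolactin acts through JAK2 and STAT5 in alveolar growth and milk production, and STAT3 acts in involution.

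STAT5 binds the palindrome TTCNNNGAA, where N is any base. This motif is its own reverse complement, so 1 search covers both strands, and matches were counted in windows from 250 bases before to 50 bases after each RefSeq transcript start (build GRCh38.p14). Of the 10 genes, 9 were matched to a window, all except SOCS2, and they have 15 windows. Only CISH holds a match, and it holds 4 of them. Across all genes, 2689 of 35116 windows (7.66%) hold at least 1 match, and 7 windows (0.0199%), of 6 genes, hold 4 or more. BCL6, a transcriptional repressor that STAT5 is known to repress in lymphoid cells, is another of those 6 genes and is the gene of the STAT5 target list whose RNA passed the test described further on. Among the 14 genes of that list with a window, CISH, BCL6, CSN2 and TNFSF11 hold the motif in at least 1 window. These 14 genes have 19 windows, and a count of genes is not comparable with the share of windows above. Of 20 genes with a window in the STAT3 target list, also described further on, 1 holds the motif. BCL6 and TNFSF11 each have another window, at a different transcript start, that holds none. The stretches that hold the matches are printed for CISH and BCL6 because the same feature is shared by a gene of the set whose RNA did not pass the test and by a target that did. The CISH stretch is the 250 bases before the start on the minus strand, chr3:50611775-50612024. The BCL6 stretch runs from 250 bases before the start to 25 bases into the first exon on the minus strand, chr3:187745444-187745718. Capitals mark the matches.
CISH: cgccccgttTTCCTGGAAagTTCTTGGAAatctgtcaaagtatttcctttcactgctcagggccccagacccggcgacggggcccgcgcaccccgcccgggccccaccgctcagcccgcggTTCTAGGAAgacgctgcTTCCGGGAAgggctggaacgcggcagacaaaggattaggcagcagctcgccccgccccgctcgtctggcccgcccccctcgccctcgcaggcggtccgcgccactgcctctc
BCL6: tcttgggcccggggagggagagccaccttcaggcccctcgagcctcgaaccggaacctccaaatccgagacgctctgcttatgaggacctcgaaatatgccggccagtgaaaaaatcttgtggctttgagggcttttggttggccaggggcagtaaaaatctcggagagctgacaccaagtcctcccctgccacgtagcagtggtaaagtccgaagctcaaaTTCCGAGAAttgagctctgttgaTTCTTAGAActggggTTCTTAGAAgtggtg
In CISH the matches begin 241, 230, 129 and 112 bases before the start. In BCL6 they begin 28 and 5 bases before it and 11 and 37 bases after it, and the last lies outside the printed stretch. A match is a description of the letters, and binding was not measured.

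NRP1, the gene that was overexpressed, had 7 and 8 reads in control replicates 1 and 2 and 103 and 62 reads in NRP-1 replicates 2 and 3. It rose by a log2 fold change of 3.38 (SE 0.42, adjusted p = 0.044, edgeR quasi-likelihood test with Benjamini-Hochberg adjustment over 14298 genes). Each library held between 8243595 and 8448926 estimated reads. Replicates differed by a biological coefficient of variation of 0.064 in control and 0.225 in NRP-1 libraries. Of the 14298 genes tested, 156 passed an adjusted p of 0.05, which is 1.09%, and the median log2 fold change was 0.02. None of these calls, NRP1 included, was left when control replicate 1 (adjusted p = 0.805 for NRP1 by edgeR) or control replicate 2 (adjusted p = 0.569) was left out. The 10 luminal markers checked were listed in every library, and their summed level was 4490 and 4491 FPKM (fragments scaled to transcript length and to library size) in control and 5546 and 4822 FPKM in NRP-1 libraries. Of 12 markers of basal, stromal, endothelial and blood cells, 8 were listed, and their summed level was 37.65 and 38.07 FPKM in control and 33.41 and 31.96 FPKM in NRP-1 libraries, most of it COL1A1, while KRT14, PDGFRB, CD3E and CD14 were listed in none. VWF, an endothelial marker, had 9 and 20 reads in control and 47 and 49 reads in NRP-1 libraries (adjusted p = 0.0998, edgeR), and its part in the results was not tested. In bulk RNA, fewer cells that express a gene and less RNA per cell cannot be told apart. Nothing in the labels states that the libraries came from separate cultures, so p-values measure the spread between these libraries.

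Levels of the 10 genes spanned more than 2 orders of magnitude on the FPKM scale, which corrects for transcript length. STAT3 was highest, with a mean of 33.0 FPKM over the 4 libraries, and it lay at the 87.45 percentile of all listed genes. CISH followed with 14.1 FPKM (71.71 percentile), and its lowest library stood above every library of the next gene. SOCS6 (8.45 FPKM) and SOCS4 (7.61 FPKM) overlapped each other. STAT5B came next with 5.48 FPKM, close to the median of all listed genes, 4.99 FPKM. SOCS1 (1.82 FPKM) and SOCS2 (1.79 FPKM) overlapped each other, and in its lowest library SOCS2 also met the range of SOCS3. SOCS3, STAT5A and JAK2 were the lowest, with means of 0.195, 0.145 and 0.105 FPKM, and their ranges overlapped. The kinase of the set was therefore listed at a far lower level than the 3 other Janus kinases, TYK2 at a mean of 29.1 FPKM, JAK1 at 20.1 FPKM and JAK3 at 3.23 FPKM, and its highest library (0.22 FPKM) was below the lowest library of JAK3 (2.81 FPKM). The suppressor with the highest level in these cells was SOCS7, outside the set, at 56.0 FPKM.

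**Figure D1:**
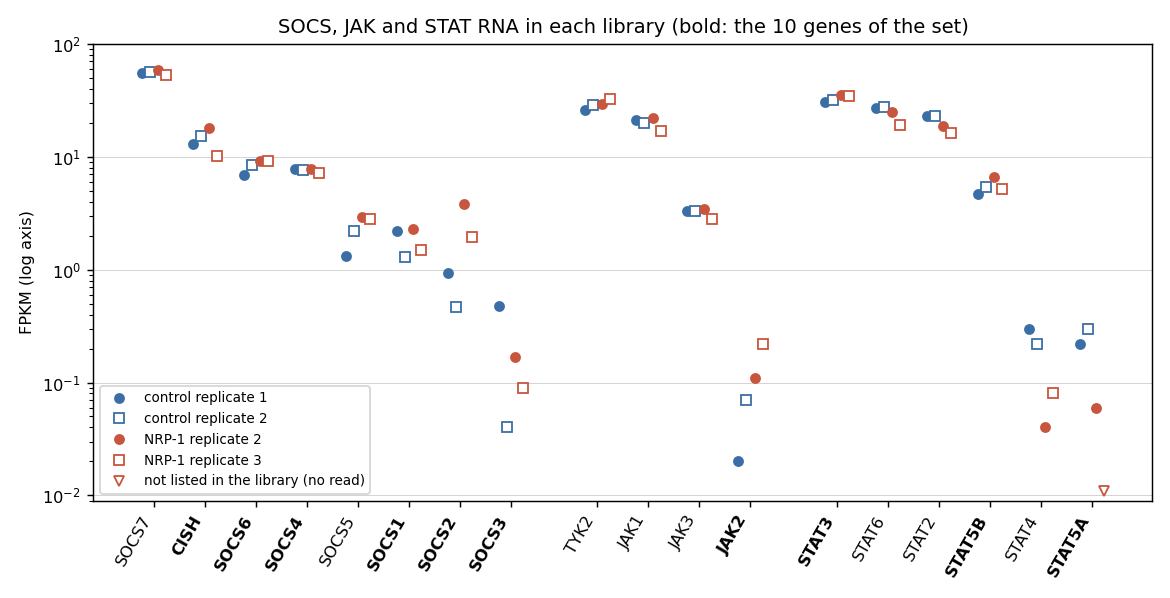
FPKM (log axis) of the 10 genes, in bold, and of 8 other SOCS, JAK and STAT genes in each of the 4 libraries, with control libraries in blue, NRP-1 libraries in red, and a triangle where a gene is not listed. SOCS7 and STAT3 sit highest, at means of 56.0 and 33.0 FPKM, and JAK2 sits lowest, at 0.105 FPKM. The SOCS2 points are at 0.93 and 0.47 FPKM in control and 3.83 and 1.93 FPKM in NRP-1 libraries.

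None of the 7 genes of the set with enough reads to be tested passed an adjusted p of 0.05 by edgeR, against 1.09% of all genes tested. At an unadjusted p of 0.05 the count was 1 of 7, SOCS2, against 22.9% of all genes. DESeq2 called 1 of 7, again SOCS2, against 6.8% of all genes with an adjusted p. By limma 0 were called, against 7 of 14574 genes on log2(FPKM + 1), 3 on log2(FPKM + 0.1) and 0 of 18882 genes without a filter. The groups did not overlap in 4 of the 7 genes on the normalized scale, CPM (counts scaled to library size, with TMM factors), of which SOCS2, SOCS6 and STAT3 were higher and SOCS4 was lower in NRP-1 cells, against 56.2% of all genes. The other 3 genes of the set, SOCS3, STAT5A and JAK2, had too few reads for the test.

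SOCS2, which restrains growth hormone signalling and loss of which causes overgrowth in mice, had 21 and 10 reads in control and 86 and 43 reads in NRP-1 libraries. On the length-corrected scale these were 0.93 and 0.47 FPKM in control (mean 0.70 ± 0.325, SD, n = 2) and 3.83 and 1.93 FPKM in NRP-1 cells (mean 2.88 ± 1.34, SD, n = 2). Both NRP-1 libraries stood above both control libraries, and within each group the higher library had about 2 times the level of the lower. The log2 fold change was 1.99 (SE 0.52), which is 3.97-fold with a 95% interval of 1.65 to 9.56. The adjusted p was 0.102 by edgeR with Benjamini-Hochberg adjustment and 0.0323 by DESeq2, so whether SOCS2 passed rested on the tool. Its log2 fold change stayed between 1.39 and 2.62 when each library was left out in turn. With NRP-1 replicate 3 as the only NRP-1 library it was 1.39, and with replicate 2 alone it was 2.40. In such fits the lone NRP-1 library is assumed to vary as the control libraries do, so they cannot decide whether SOCS2 passed. The study picked SOCS2 from these same libraries for follow-up by quantitative PCR, so its direction here is not independent evidence. The study's text reports a rise of TNC by that method and gives no such result for SOCS2.

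As a share of the summed FPKM of the 6 suppressors in the set, SOCS2 made up 2.98% and 1.41% in control and 9.29% and 6.39% in NRP-1 libraries. Without SOCS2 that sum was 30.27 and 32.77 FPKM in control and 37.4 and 28.27 FPKM in NRP-1 libraries, and the groups overlapped. The antisense gene SOCS2-AS1 had 0 and 3 reads in control and 5 and 0 reads in NRP-1 libraries. No source used here states that the libraries kept the strand, so reads of SOCS2 and its antisense gene cannot be told apart where they overlap, and with the 2 genes summed the log2 fold change was 1.91 (adjusted p = 0.0984, edgeR).

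The 3 genes whose profile over the 4 libraries lay nearest to that of SOCS2, among 14121 compared by Euclidean distance of centred log2 CPM, were MAP2 (distance 0.234), RARRES1 (0.344) and IGSF5 (0.350). MAP2, which encodes a microtubule-associated protein of neurons, had 23 and 9 reads in control and 76 and 42 reads in NRP-1 libraries. RARRES1, a retinoic acid responsive gene, had 18 and 11 against 70 and 35 reads. IGSF5, which encodes a junctional adhesion molecule, had 4 and 2 against 23 and 13 reads. Each of them had its lowest value in control replicate 2 and its highest in NRP-1 replicate 2, as SOCS2 did, which follows from their choice by profile. These are descriptions over 4 libraries.

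CISH, the first suppressor of the family to be identified and a direct STAT5 target, had 230 and 272 reads in control and 323 and 186 reads in NRP-1 libraries (12.93, 15.31, 17.94 and 10.22 FPKM). The 2 NRP-1 libraries lay on either side of both control libraries and differed from each other 1.76-fold in FPKM. The log2 fold change was -0.04 (SE 0.28, 95% interval -0.73 to 0.65, adjusted p = 0.953, edgeR). Its direction turned with the NRP-1 library kept: the log2 fold change was 0.31 with replicate 2 alone and -0.50 with replicate 3 alone. The NRP-1 library with more NRP1 reads, 103 against 62, was also the one with more SOCS2 and CISH reads, and with 2 libraries no relation can be tested. The 4 motif matches in the CISH promoter are thus those of a gene whose RNA had no direction common to the NRP-1 libraries.

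SOCS1, an inhibitor that binds the kinase domain of JAKs directly and is induced by interferon, had 22 and 13 reads in control and 23 and 15 reads in NRP-1 libraries. The groups overlapped, and the log2 fold change was 0.06 (SE 0.46) with a 95% interval of -1.08 to 1.19, wide because the counts were low. SOCS4, a suppressor linked to turnover of the epidermal growth factor receptor, had 450 and 447 reads in control and 455 and 431 reads in NRP-1 libraries. Its log2 fold change was -0.08 (SE 0.13, 95% interval -0.39 to 0.24, adjusted p = 0.762, edgeR), and the groups, apart by a small gap in CPM, overlapped in FPKM. SOCS6, which acts on receptor tyrosine kinases such as KIT, had 335 and 415 reads in control and 458 and 460 reads in NRP-1 libraries. Both NRP-1 libraries were higher, by a log2 fold change of 0.23 (SE 0.15, 95% interval -0.14 to 0.61, adjusted p = 0.414, edgeR), and control replicate 1 stood further from control replicate 2 than that did from either NRP-1 library.

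SOCS3, the suppressor that limits signalling through the interleukin-6 receptor chain gp130 and is itself a STAT3 target, had 11 and 1 reads in control and 4 and 2 reads in NRP-1 libraries. The control libraries enclosed both NRP-1 libraries. Summed by group, 12 against 6 reads gave an NRP-1 to control ratio of 0.491 with an exact 95% interval of 0.151 to 1.41. This and the other intervals on summed reads cover counting error only and leave out the spread between replicates.

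STAT3, the mediator of interleukin-6 signalling, had 1260 and 1318 reads in control and 1478 and 1471 reads in NRP-1 libraries, or 30.49, 31.64, 35.20 and 34.84 FPKM. Both NRP-1 libraries were above both control libraries, and the replicates of each group lay close together. The difference was small, with a log2 fold change of 0.13 (SE 0.11, 95% interval -0.14 to 0.41, adjusted p = 0.518, edgeR), and it stayed between 0.11 and 0.16 when each library was left out. STAT3 was thus the member measured most precisely, with an interval that leaves out changes above 1.33-fold.

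STAT5A and STAT5B, near-identical neighbours that mediate prolactin and growth hormone signalling, were present at unequal levels. STAT5B had 200 and 233 reads in control and 293 and 229 reads in NRP-1 libraries. The groups overlapped, and the log2 fold change was 0.21 (SE 0.19, 95% interval -0.26 to 0.68, adjusted p = 0.557, edgeR). STAT5A, the form more closely tied to mammary gland development, had 8 and 11 reads in control, 2 reads in NRP-1 replicate 2 and 0 reads in NRP-1 replicate 3, which allows up to 3 reads (the exact two-sided 95% Poisson interval reaches 3.69). Summed by group, 19 against 2 reads gave a control to NRP-1 ratio of 9.67 with an exact 95% interval of 2.33 to 85.6. In the fit without a filter on low counts, the adjusted p of STAT5A was 0.231 by edgeR, and its unadjusted p was 0.0292. STAT5A made up 4.52% and 5.29% of the summed STAT5 FPKM in control and 0.889% and 0% in NRP-1 libraries. Because the pair share long stretches of sequence, the split of reads between them is uncertain at such counts. Summed, they gave a log2 fold change of 0.15. The ratio of STAT3 to summed STAT5 FPKM was 6.26 and 5.58 in control and 5.21 and 6.71 in NRP-1 libraries, with the control values inside the NRP-1 range.

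JAK2, the kinase carried by the prolactin, growth hormone and erythropoietin receptors, had 1 and 3 reads in control and 5 and 10 reads in NRP-1 libraries. Both NRP-1 libraries were higher, and the summed 4 against 15 reads gave an NRP-1 to control ratio of 3.68 with an exact 95% interval of 1.17 to 15.3. The fit without a filter gave a log2 fold change of 1.79 with an adjusted p of 0.361 by edgeR. At 0.02 and 0.07 FPKM in control and 0.11 and 0.22 FPKM in NRP-1 libraries, JAK2 stayed at the low end of the listed genes (11.79 percentile over all libraries).

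**Figure D2:**
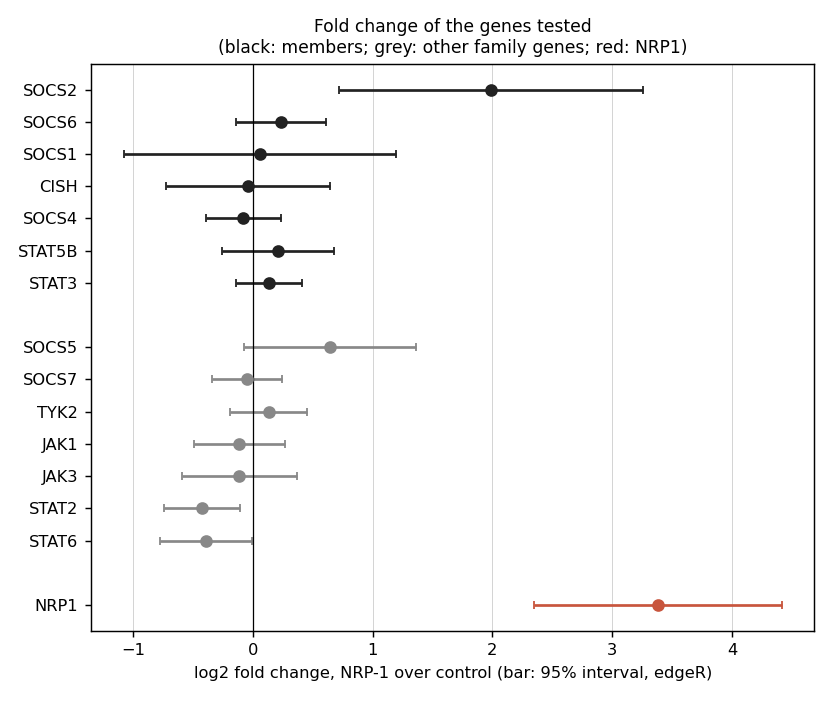
Log2 fold change of NRP-1 over control with its 95% interval (edgeR) for the 7 tested genes of the set in black, 7 other tested SOCS, JAK and STAT genes in grey and NRP1 in red. Among the genes of the set the SOCS2 interval, 0.72 to 3.26, is the one that does not include 0, and those of STAT3 and SOCS4 are the narrowest.

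Of 8 other genes of the SOCS, JAK and STAT families, 7 were tested and 0 passed by edgeR or by DESeq2, against 1.09% and 6.8% of all genes. At an unadjusted p below 0.05 by edgeR there were 2, against 22.9% of all genes. Those were STAT2, a subunit of the interferon-induced complex ISGF3, and STAT6, the mediator of interleukin-4 signalling. STAT2 had 875 and 879 reads in control and 731 and 635 reads in NRP-1 libraries, with a difference of -0.42 on the log2 scale (SE 0.13, adjusted p = 0.138, edgeR). STAT6 had 912 and 941 against 828 and 644 reads, with a difference of -0.39 (SE 0.16, adjusted p = 0.21, edgeR). In both genes every NRP-1 library was below every control library. STAT4 had 7 and 5 against 1 and 2 reads, below the filter, and its control to NRP-1 ratio on summed reads was 4.07 (exact 95% interval 1.10 to 22.5).

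SOCS5, a close relative of SOCS4, had 50 and 84 reads in control and 110 and 108 reads in NRP-1 libraries, with a difference of 0.64 on the log2 scale (SE 0.29, adjusted p = 0.257, edgeR). SOCS7, the most abundant suppressor, had 3700 and 3820 against 3942 and 3636 reads, and its log2 fold change was -0.05 (95% interval -0.34 to 0.25). The log2 fold changes of JAK1, JAK3 and TYK2 were -0.11, -0.11 and 0.13, and the CPM of the 2 groups overlapped in each of these 3 genes and in SOCS7. Set beside SOCS2, whose log2 fold change was 1.99, the tested suppressors other than SOCS5 lay between -0.08 and 0.23, and differences between genes were not tested.

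Upstream of the set, 37 of 38 cytokine receptors were listed and 28 tested. None was called by edgeR, against 1.09% of all genes. At an unadjusted p below 0.05 by edgeR there were 1 higher and 5 lower, against 10.8% and 12.1% of all genes. DESeq2 called 0 higher and 5 lower, against 2.86% and 3.94% of all genes. The median log2 fold change of the receptors was -0.16, beside 0.02 for all genes. This list and those below were written with earlier results of these data known, so their contrasts with all genes are descriptions. IL3RA, the interleukin-3 receptor chain, had 192 and 202 reads in control and 90 and 69 reads in NRP-1 libraries (log2 fold change -1.37, SE 0.21, adjusted p = 0.0536, edgeR). IL2RB, a chain shared by the interleukin-2 and interleukin-15 receptors that signals to STAT5, had 123 and 134 against 47 and 26 reads (-1.87, SE 0.32, adjusted p = 0.0581). IL20RA, a receptor chain for interleukins 19, 20 and 24 that signals to STAT3, had 42 and 53 against 7 and 13 reads (-2.29, SE 0.42, adjusted p = 0.064) and also belongs to the study's own list from these libraries. These 3 were named for the lowest unadjusted p of the list. In all 3 the NRP-1 libraries were below the control libraries and DESeq2 made a call, which partly follows from that choice. Of the 28 receptors, 9 were lower and 3 higher without overlap in CPM, against 28.3% and 27.9% of all genes.

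Of 29 cytokine ligands, 19 were listed and 7 tested, with 0 called by edgeR or DESeq2, against 1.09% and 6.8% of all genes. By edgeR, 0 had an unadjusted p below 0.05, against 22.9% of all genes. The median log2 fold change was 0.20, beside 0.02 for all genes. CNTF, ciliary neurotrophic factor, had 10 and 0 reads in control and 15 and 19 reads in NRP-1 libraries. LIF, leukaemia inhibitory factor, had 21 and 21 against 20 and 54 reads, and the groups overlapped. IL11, a ligand of the gp130 family, had 43 and 49 against 61 and 58 reads, with both NRP-1 libraries higher. These 3 genes had adjusted p of 0.36, 0.44 and 0.513 by edgeR.

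All 6 subunits and cofactors of the Cullin-5 ligase that SOCS boxes recruit were tested. By edgeR or DESeq2, 0 were called, against 1.09% and 6.8% of all genes. At an unadjusted p below 0.05 by edgeR, 1 was higher, against 10.8% of all genes. The 6 log2 fold changes were all above 0, between 0.06 and 0.58, with a median of 0.17, beside 0.02 for all genes. UBE2F, which charges Cullin-5 with NEDD8, had 188 and 180 reads in control and 282 and 292 reads in NRP-1 libraries, with a difference of 0.58 on the log2 scale (SE 0.15, adjusted p = 0.106, edgeR). NEDD8 itself (0.21) and CUL5 (0.19) were also higher in both NRP-1 libraries, with adjusted p of 0.352 and 0.434 by edgeR.

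Among 12 tested inhibitors of the pathway outside the SOCS family, 0 were called by edgeR, against 1.09% of all genes. The median log2 fold change was 0.02, as for all genes. At an unadjusted p below 0.05 by edgeR, 1 was higher, against 10.8% of all genes. That gene was CBL, a ubiquitin ligase for activated tyrosine kinases and their receptors, with 197 and 218 reads in control and 355 and 414 reads in NRP-1 libraries. Its log2 fold change was 0.83 (SE 0.16), with an adjusted p of 0.068 by edgeR and 0.019 by DESeq2. PTPN6 had a log2 fold change of -0.41 and PTPN11 one of 0.13, which was -0.01 at the lowest when each library was left out. These phosphatases, SHP-1 and SHP-2, had adjusted p of 0.346 and 0.617 by edgeR.

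Downstream, 14 of 20 genes listed as STAT5 targets were tested, 4 of the 20 being CISH and SOCS1 to SOCS3 themselves. edgeR called 0 higher and 1 lower, against 0.413% higher and 0.678% lower among all genes, and 3 in each direction had an unadjusted p below 0.05, against 10.8% higher and 12.1% lower. DESeq2 called 1 higher and 2 lower, against 2.86% and 3.94% of all genes. The gene that fell was BCL6, with 405 and 427 reads in control and 203 and 202 reads in NRP-1 libraries. Replicates agreed closely in both groups, and the log2 fold change was -1.10 (SE 0.14, adjusted p = 0.044, edgeR). MYC, the growth-promoting transcription factor, had 1113 and 1116 against 231 and 553 reads, a log2 fold change of -1.57 (SE 0.38, adjusted p = 0.0893 by edgeR). The median of the list was -0.13. BCL6 and CISH, which share the motif clusters printed above, thus had NRP-1 libraries that were all below control in the first and on either side of control in the second.

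The STAT5 and STAT3 target lists share SOCS3, MYC, PIM1, BCL2L1 and CCND1, so their counts are not separate. DESeq2 called MYC lower, and it is counted in both. Of 29 genes listed as STAT3 targets, STAT3 and SOCS3 among them, 24 were tested. By edgeR, 0 were called higher and 2 lower, against 0.413% and 0.678% of all genes. At an unadjusted p below 0.05 there were 2 higher and 10 lower, against 10.8% and 12.1% of all genes, and DESeq2 called 1 higher and 8 lower, against 2.86% and 3.94% of all genes. The median log2 fold change was -0.57, beside 0.02 for all genes. Because the list was written with earlier results of these data known, this contrast is not independent evidence of a shift in STAT3 targets. SERPINA3, an acute-phase protease inhibitor, had 1228 and 1201 reads in control and 77 and 55 reads in NRP-1 libraries, and it fell by 4.26 on the log2 scale (SE 0.19, adjusted p = 0.00856, edgeR). LCN2, the siderophore-binding protein lipocalin-2, had 8096 and 5855 against 759 and 310 reads, and it fell by 3.77 on the log2 scale (SE 0.45, adjusted p = 0.0435, edgeR). MUC1, a membrane mucin, had 1577 and 1666 against 732 and 363 reads (log2 fold change -1.62, SE 0.31, adjusted p = 0.068). SERPINA3 and LCN2 stand in the study's own list from these libraries, so they are not independent evidence of direction. STAT3 itself was 1.10-fold its control level in NRP-1 cells, and its part in the differences of the list was not tested. The 3 calls, BCL6, SERPINA3 and LCN2, were lost by edgeR without control replicate 1 (adjusted p = 0.805 for each) or without control replicate 2 (adjusted p = 0.569 for each).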

How the data were processed

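Per the labels, mRNA was enriched with oligo(dT) beads and copied with random hexamers, and whether the strand was kept is not given in the sources used here. The GEO design text and the study's methods name different Illumina instruments. The submitters' processing notes name bcl2fastq 2.16, HISAT2 2.0.1, Bowtie2 2.2.5 and RSEM, and both GRCh38 and hg19 with no role, so no coordinates were taken from the files. For each library the authors deposited 1 table of RSEM expected counts per RefSeq gene, not normalized, with FPKM to 2 decimals. A deposited table of the authors' own comparison (fold changes and probabilities) was not used. A gene that a library's table did not list was taken as 0 reads. Symbols were matched for 18762 of 18882 gene IDs (99.4%).

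Expected counts were rounded (32.8% of values were not whole) and tested with edgeR 4.0.16 (TMM, filterByExpr, quasi-likelihood) in R 4.3.3 over 14298 genes, with Benjamini-Hochberg adjustment. A call is an adjusted p below 0.05. The study's own thresholds are an adjusted p up to 0.001 and a change of 2 or more on the log2 scale. By them edgeR called 0 genes here, against 3268 at an unadjusted p below 0.05. The study used them on another comparison, with a fold change for each of 2 replicates that had to concur. Its list holds genes in both directions, SOCS2 among the higher. CPM here is the rounded count scaled by library size and the TMM factor, which ran from 0.986 to 1.01. An exact permutation test (two-sided) of 2 against 2 libraries can reach no p below 0.33. On simulated counts of 2 against 2 libraries (14298 genes, 200 changed by 2 on the log2 scale), edgeR recovered 94% with 13 false calls. DESeq2 recovered 88% with 5. Whether these shares hold for the sequenced libraries, with a biological coefficient of variation of 0.064 in control and 0.225 in NRP-1, was not tested. Alternatives were DESeq2 1.42.0, other scalings, no filter, limma 3.58.1 on log2(FPKM + 1) or log2(FPKM + 0.1) with a mean FPKM of at least 0.5 or no filter, each library left out in turn, and near-identical or antisense genes summed.

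The genes of the set and all lists were chosen with earlier results of these data known. Named genes were the set, NRP1, 8 other SOCS, JAK and STAT genes, SOCS2-AS1, in each list the called genes and the 3 with the lowest unadjusted p, and the 3 profiles nearest to SOCS2 with a mean of at least 10 reads. Some genes of the lists are not reported here and were left out of the list counts. WAP, in the STAT5 target list, matched no listed gene. Promoter sequences came from RefSeq GRCh38.p14.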

Additional observations from a re-analysis of the deposited data

How the results depend on the processing

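The number of genes called, 156 by edgeR, was 953 with DESeq2, 7 with limma on log2(FPKM + 1), 3 with limma on log2(FPKM + 0.1), and 0 with no filter on low counts or with limma and no filter. It ranged from 0 to 5402 when each library was left out, being 0 without either control library and 5402 or 4134 without NRP-1 replicate 2 or 3. A lone library is then assumed to vary like the other group. The number of called genes in the set, 0 by edgeR, was 1 with DESeq2 and ranged from 0 to 2 when each library was left out, the 2 being SOCS2 and CISH without NRP-1 replicate 2. The number of called genes in the other lists, 3 by edgeR, was 16 with DESeq2, 1 with limma on log2(FPKM + 1) or log2(FPKM + 0.1), 0 with no filter on low counts or with limma and no filter, and 0 to 35 when each library was left out. The cause of these shifts was not tested.

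When each library was left out, the log2 fold change changed sign in SOCS1 (-0.29 to 0.49), CISH (-0.50 to 0.31), SOCS7 (-0.12 to 0.0095), JAK1 (-0.31 to 0.055) and JAK3 (-0.28 to 0.029). Of the list genes named in this text, it changed sign in LIF (-0.13 to 1.29) and PTPN11 (-0.01 to 0.24). Further list genes changed sign as well, among them LIFR (-0.65 to 0.23), ELOB (-0.18 to 0.25) and CBLB (-0.80 to 0.46). Under the other alternatives, 50 of 51 values for the tested genes of the set kept direction and side of the threshold, and SOCS2 with DESeq2 was the exception. For SOCS5, SOCS7, JAK1, JAK3, TYK2, STAT2, STAT6, NRP1, BCL6, SERPINA3 and LCN2, 63 of 77 values did, and 14 lost the call with the same direction. With DESeq2, IL3RA, IL2RB, IL20RA, CBL, MYC, MUC1, EPOR, BIRC5 and JUNB gained a call. The remaining list genes to gain one were IL11RA, CEBPB, ICAM1 and HIF1A, all lower in NRP-1 cells. Scaling moved the median of all genes by less than 0.1 on the log2 scale.

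No paired analysis was possible because the groups share only replicate number 2. SOCS3, STAT5A and JAK2, with at most 11 reads in any library, were too low for a difference smaller than several-fold to be detectable at this depth.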

Other observations

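The homodimeric receptors for prolactin, erythropoietin and growth hormone, which signal through JAK2 and STAT5, were singled out after their values were seen, and each had a higher FPKM than JAK2 in every library. PRLR, the prolactin receptor, had 37.94 and 33.88 FPKM in control and 32.44 and 32.12 FPKM in NRP-1 libraries, a difference of -0.18 on the log2 scale (adjusted p = 0.431, edgeR). EPOR, the erythropoietin receptor, had 30.50 and 28.64 FPKM in control and 18.89 and 12.98 FPKM in NRP-1 libraries, and its log2 fold change of -0.92 had an adjusted p of 0.0748 by edgeR and 0.00659 by DESeq2. GHR, the growth hormone receptor, had 5.82 and 6.64 FPKM in control and 8.86 and 7.22 FPKM in NRP-1 libraries, a difference of 0.34 on the log2 scale (adjusted p = 0.313, edgeR). The ligands PRL, GH1 and IL6 were not listed in any library.

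Of the growth regulators in the target lists, also singled out after their values were seen, BIRC5, which encodes the mitosis and survival protein survivin, had 8.67 and 11.17 FPKM in control and 18.45 and 37.36 FPKM in NRP-1 libraries (log2 fold change 1.46). JUNB, an AP-1 transcription factor, had 119.46 and 105.27 FPKM in control and 69.29 and 41.19 FPKM in NRP-1 libraries (log2 fold change -1.06). Neither passed by edgeR (adjusted p = 0.0879 and 0.0848), and DESeq2 called both.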
